A study of Mus musculus with 16 samples.

Results

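The genes described here are 6 fibroblast growth factors (Fgf1, Fgf2, Fgf7, Fgf9, Fgf10 and Fgf18) and 4 of their receptors (Fgfr1, Fgfr2, Fgfr3 and the decoy-like Fgfrl1), chosen by name from probes whose transcript accession maps to the gene. All 10 were on the array and all 10 were bright enough to be tested, among 15394 genes tested in all. They were read in primary lung fibroblasts, isolated by enzymatic digestion from mice labelled female and 8 weeks old, that lacked meflin or were wild type C57BL/6J. Meflin is a membrane-anchored protein of mesenchymal cells encoded by Islr. Each genotype was cultured for 48 h with recombinant TGF-β1 at 5 ng/ml or with vehicle, which gave 4 groups of 4 arrays: knockout with TGF-β1, knockout with vehicle, wild type with TGF-β1 and wild type with vehicle. TGF-β1 is the cytokine that drives fibroblasts towards a contractile, matrix-producing state. The labels do not say which part of Islr was deleted, whether the loss was in all cells of the mouse, which strain the knockout mice were bred on, or which arrays came from which animal, so p-values measure the spread between these arrays.

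Fibroblast growth factors are secreted ligands that bind tyrosine kinase receptors together with heparan sulfate, and the receptors signal through the adaptor FRS2, RAS and the ERK kinases. That signal is damped by inhibitors such as the Sprouty proteins and dual-specificity phosphatases, and it is read out through early transcription factors of the EGR, FOS and ETV families. In the lung, fibroblasts make ligands such as FGF7 and FGF10 that act on a splice form of FGFR2 on the epithelium, and FGF10 is required for branching of the developing airways.

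The 16 arrays lay on 2 slides, each holding 2 from every group. Arrays were scaled to the 75th percentile of their spot intensities, which was 382 to 446 on knockout TGF-β1 arrays, 470 to 519 on knockout vehicle arrays, 429 to 452 on wild type TGF-β1 arrays and 486 to 526 on wild type vehicle arrays. Between 31322 and 32465 probes lay well above background on knockout TGF-β1 arrays, 33313 to 34642 on knockout vehicle arrays, 32071 to 33569 on wild type TGF-β1 arrays and 34264 to 35472 on wild type vehicle arrays. On all 8 knockout arrays Islr itself was not well above background, with a mean log2 signal of 1.76 ± 0.07 with TGF-β1 and 1.45 ± 0.16 with vehicle, against 8.34 ± 0.08 with TGF-β1 and 10.82 ± 0.06 with vehicle in wild type cells (SD, n = 4 each). Knockout cells were therefore at least 19.7-fold lower with TGF-β1 (limma, adjusted p = 6.35e-18) and, with vehicle, the bound was 138-fold (adjusted p = 1.6e-19), by 1 probe that could lie outside the deleted part. Such a bound sets the bright group against the dimmest signal that counts as above background. All 9 fibroblast markers, among them Col1a1, Pdgfra and Thy1, were well above background. Of 8 epithelial markers, Epcam and Nkx2-1 were in no group well above background on all 4 arrays, whereas Cdh1, Krt8, Krt18 and Cldn18 were on all 16 arrays, and the surfactant genes Sftpc and Sftpb were on all 8 vehicle arrays.

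Values below are log2 signals of the brightest probe of a gene after scaling, and a difference of 1 means a 2-fold change. Values after ± are standard errors of a log2 difference unless SD is given. A difference counts as higher or lower when limma's adjusted p, over all 15394 genes, was under 0.05. TGF-β1 changed all 10 genes in knockout cells, 4 higher and 6 lower, where 82.6% of all genes changed (46.6% higher and 35.9% lower). In wild type cells it changed 5 of the 10, 1 higher and 4 lower, where 68.6% of all genes changed (41.3% higher and 27.3% lower). Under quantile normalization 8 of the 10 were called in knockout cells, 2 higher and 6 lower. The response differed between genotypes for 6 of the 10, with 3 more positive and 3 more negative in the knockout, where it did so for 58.3% of all genes (31.9% more positive and 26.5% more negative). Against those shares, fewer of the 10 were higher in wild type cells and more were lower in knockout cells; the 10 were chosen with results known, so these counts carry no test. The median of the 10 differences was -0.16 in knockout and -0.17 in wild type cells, beside 0.10 in knockout and 0.08 in wild type cells over all genes tested. The signals of every array are drawn in the plots of ligands and of receptors.

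**Figure D1:**
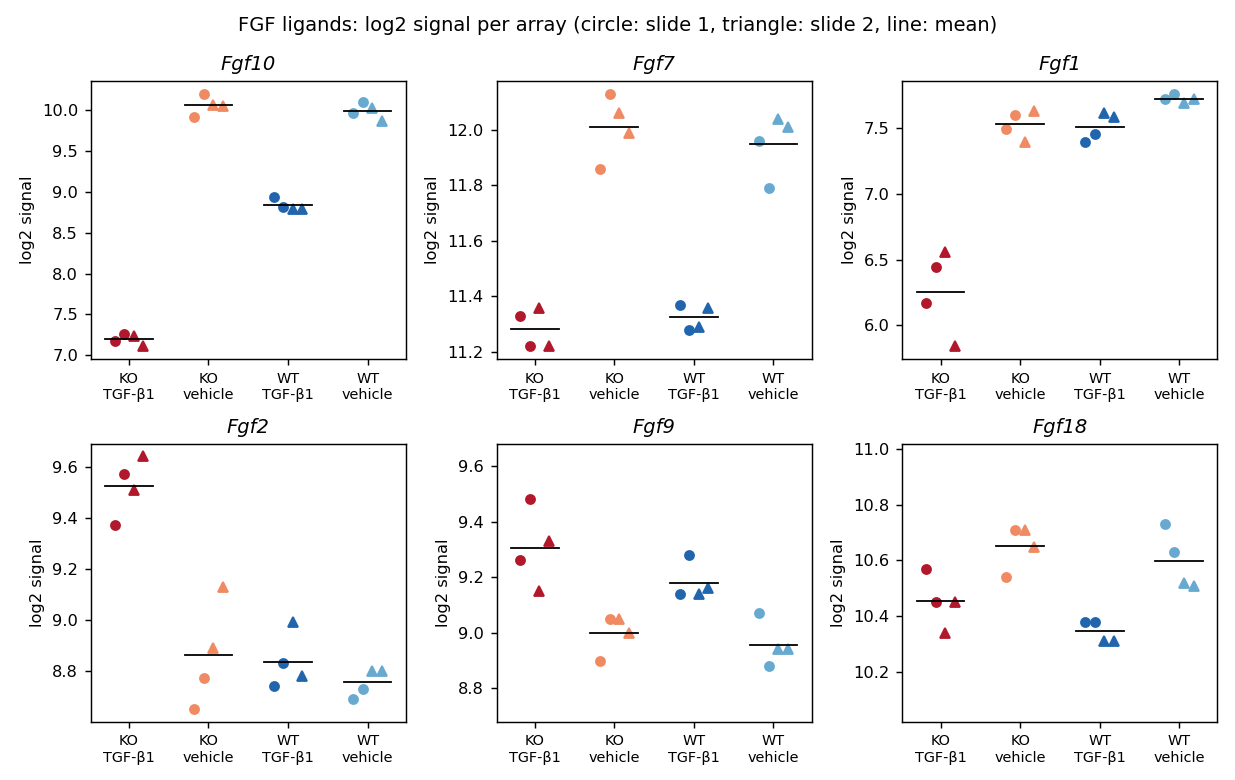
Log2 signal (vertical axis, own range in each panel) of the 6 ligands on each of the 16 arrays, by group, with the mean as a line, circles for slide 1 and triangles for slide 2. Fgf10 and Fgf1 are lowest and Fgf2 highest on the 4 knockout arrays with TGF-β1, while Fgf7 is lower with TGF-β1 in both genotypes.

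Fgf10 encodes the ligand that fibroblasts of the lung present to the epithelium, and it fell with TGF-β1 in both genotypes, further in the knockout. In knockout cells Fgf10 read 7.18, 7.26, 7.24 and 7.11 with TGF-β1, against 9.92, 10.2, 10.06 and 10.05 with vehicle. Wild type cells read 8.94, 8.82, 8.79 and 8.79 with TGF-β1, against 9.96, 10.1, 10.03 and 9.86 with vehicle. The 2 vehicle groups overlap, wild type arrays with TGF-β1 lie below both, and knockout arrays with TGF-β1 lie below all others. The fall was 7.26-fold in knockout cells, a log2 difference of -2.86 ± 0.06 (limma, adjusted p = 3.45e-15). It was 2.22-fold in wild type cells, at -1.15 ± 0.06 (adjusted p = 4.78e-10). The response was larger in the knockout by -1.71 ± 0.09 (adjusted p = 6.35e-10), at -1.70 within slide 1 and -1.72 within slide 2. With TGF-β1 present, knockout cells held 3.11-fold less Fgf10 signal than wild type cells (-1.64 ± 0.06, adjusted p = 7.49e-12). A second, dimmer Fgf10 probe, below background on 3 of the 4 knockout TGF-β1 arrays, gave -1.61 in knockout and -0.79 in wild type cells.

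Fgf7, also called keratinocyte growth factor, acts on the same splice form of FGFR2 as FGF10 and fell in both genotypes. In knockout cells Fgf7 read 11.33, 11.22, 11.36 and 11.22 with TGF-β1, against 11.86, 12.13, 12.06 and 11.99 with vehicle. The wild type arrays gave 11.37, 11.28, 11.29 and 11.36 with TGF-β1, against 11.96, 11.79, 12.04 and 12.01 with vehicle. Every TGF-β1 array lies below every vehicle array, and the genotypes overlap within each treatment. The log2 difference was -0.73 ± 0.06 in knockout (limma, adjusted p = 3.9e-08) and -0.63 ± 0.06 in wild type cells (adjusted p = 5.12e-07). The responses differed by -0.10, with a 95% confidence interval of -0.30 to 0.09, which did not pass the test (adjusted p = 0.343). Under quantile normalization that difference was -0.20 and passed (adjusted p = 0.0474).

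The promoters of Fgf10, Fgf7 and Fgf18, the ligands that fell in both genotypes, are shown with that of Fgf2, which rose in knockout cells and did not pass the test in wild type cells. Each is 300 bases from RefSeq on build GRCm38.p6, from 250 bases before to 50 after the gene's start, read in the direction of the gene, which is the minus strand for Fgf18 and the plus strand for the others. Fgf10 is chr13:118714449-118714748, Fgf7 chr2:126034408-126034707, Fgf18 chr11:33147351-33147650 and Fgf2 chr3:37348403-37348702. Capitals mark the SMAD box CAGAC on either strand, the short motif bound by SMAD proteins downstream of TGF-β receptors.
Fgf10: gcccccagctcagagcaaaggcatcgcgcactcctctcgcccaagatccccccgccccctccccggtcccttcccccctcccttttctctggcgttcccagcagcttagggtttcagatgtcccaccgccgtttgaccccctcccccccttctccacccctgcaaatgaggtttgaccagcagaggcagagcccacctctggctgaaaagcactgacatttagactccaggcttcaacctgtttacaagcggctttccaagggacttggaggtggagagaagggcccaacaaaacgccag
Fgf7: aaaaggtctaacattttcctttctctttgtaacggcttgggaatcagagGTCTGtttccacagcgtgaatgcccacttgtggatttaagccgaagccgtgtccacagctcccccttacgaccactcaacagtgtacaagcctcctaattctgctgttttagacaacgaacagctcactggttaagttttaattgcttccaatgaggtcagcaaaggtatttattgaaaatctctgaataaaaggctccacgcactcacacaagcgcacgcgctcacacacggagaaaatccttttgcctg
Fgf18: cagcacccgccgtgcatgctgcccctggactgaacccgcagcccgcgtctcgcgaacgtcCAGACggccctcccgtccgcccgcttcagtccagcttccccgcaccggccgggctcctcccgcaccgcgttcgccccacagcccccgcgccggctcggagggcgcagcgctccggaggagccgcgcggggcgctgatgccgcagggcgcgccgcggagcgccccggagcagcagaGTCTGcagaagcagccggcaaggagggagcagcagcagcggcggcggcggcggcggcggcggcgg
Fgf2: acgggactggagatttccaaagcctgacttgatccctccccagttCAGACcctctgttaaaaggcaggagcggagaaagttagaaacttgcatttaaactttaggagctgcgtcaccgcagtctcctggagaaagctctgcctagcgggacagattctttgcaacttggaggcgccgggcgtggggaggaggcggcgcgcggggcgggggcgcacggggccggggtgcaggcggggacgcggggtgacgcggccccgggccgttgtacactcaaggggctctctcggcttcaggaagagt
Fgf2 holds 1 match on the strand shown, Fgf7 holds 1 on the opposite strand, Fgf18 holds 1 on each, and the Fgf10 window holds none. Of the 8 genes with such a window, Fgf9 also holds 1 match, and Fgfr2, Fgfr3 and Fgfrl1 hold none. The motif stands in 49.6% of all 32851 promoter windows of this length. The AP-1 site TGANTCA, found in 7.81% of windows, the TEAD site CATTCC, in 14.7%, and the CArG box, in 1.63%, stand on neither strand of any of the 8. A match is a description of the letters only.

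Fgf1, or acidic FGF, a ligand that binds all the FGF receptors and leaves the cell without a signal peptide, was lower on the knockout arrays with TGF-β1 than on any other. In knockout cells Fgf1 read 6.17, 6.44, 6.56 and 5.84 with TGF-β1, against 7.49, 7.6, 7.39 and 7.63 with vehicle. Wild type signals were 7.39, 7.45, 7.61 and 7.58 with TGF-β1, against 7.72, 7.76, 7.69 and 7.72 with vehicle. The spread was widest in the knockout with TGF-β1 (SD 0.32), yet its 4 arrays stay below all 12 others. Fgf1 fell 2.42-fold in knockout cells, at -1.28 ± 0.12 (limma, adjusted p = 7.38e-08), and the -0.21 ± 0.12 in wild type cells did not pass (adjusted p = 0.12). The responses differed by -1.06 ± 0.17 (adjusted p = 6.61e-05), at -0.92 within slide 1 and -1.20 within slide 2. With normexp background correction, which lifts dim probes, the knockout response was -0.74 and the difference between responses -0.62, both still past the threshold. The other 2 Fgf1 probes were too dim to use. Within slide 1, and without replicate 4 of the knockout TGF-β1 arrays, the wild type difference passed, at -0.32 and -0.21 (adjusted p = 0.0333 and 0.0281).

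Fgf2, or basic FGF, a mitogen of fibroblasts that also lacks a signal peptide, rose in the knockout. In knockout cells Fgf2 read 9.37, 9.57, 9.51 and 9.64 with TGF-β1, against 8.65, 8.77, 8.89 and 9.13 with vehicle. In the wild type, Fgf2 read 8.74, 8.83, 8.99 and 8.78 with TGF-β1, against 8.69, 8.73, 8.8 and 8.8 with vehicle. The knockout arrays with TGF-β1 lie above all others, and the remaining 3 groups overlap. The difference was 0.66 ± 0.09 in knockout cells, 1.58-fold (limma, adjusted p = 6.2e-06), and 0.08 ± 0.09 in wild type cells (adjusted p = 0.432). The responses differed by 0.58 ± 0.13 (adjusted p = 0.00124), at 0.68 within slide 1 and 0.47 within slide 2. A second Fgf2 probe gave 0.48 in knockout and -0.16 in wild type cells.

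Fgf9 and Fgf18, ligands that act mainly on mesenchymal cells in the developing lung, moved little in both genotypes. In knockout cells Fgf9 read 9.26, 9.48, 9.15 and 9.33 with TGF-β1, against 8.9, 9.05, 9.05 and 9 with vehicle. Wild type cells read 9.14, 9.28, 9.14 and 9.16 with TGF-β1, against 9.07, 8.88, 8.94 and 8.94 with vehicle. The treatments do not overlap within a genotype, whereas the genotypes do within each treatment. Fgf9 was higher by 0.31 ± 0.06 in knockout (limma, adjusted p = 0.000426) and by 0.22 ± 0.06 in wild type cells (adjusted p = 0.00678; 0.113 within slide 1). Fgf18 lay between 10.34 and 10.57 with TGF-β1 and between 10.54 and 10.71 with vehicle in knockout cells, ranges that overlap. In wild type cells Fgf18 lay between 10.31 and 10.38 with TGF-β1 and between 10.51 and 10.73 with vehicle, which do not. Fgf18 was lower by 1.15-fold in knockout (-0.20 ± 0.06, adjusted p = 0.00527; -0.11 and adjusted p = 0.248 within slide 1; -0.33 under quantile normalization) and by 1.19-fold in wild type cells (-0.25 ± 0.06, adjusted p = 0.00138). The interval of the difference between responses was -0.11 to 0.28 for Fgf9 and -0.12 to 0.23 for Fgf18.

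**Figure D2:**
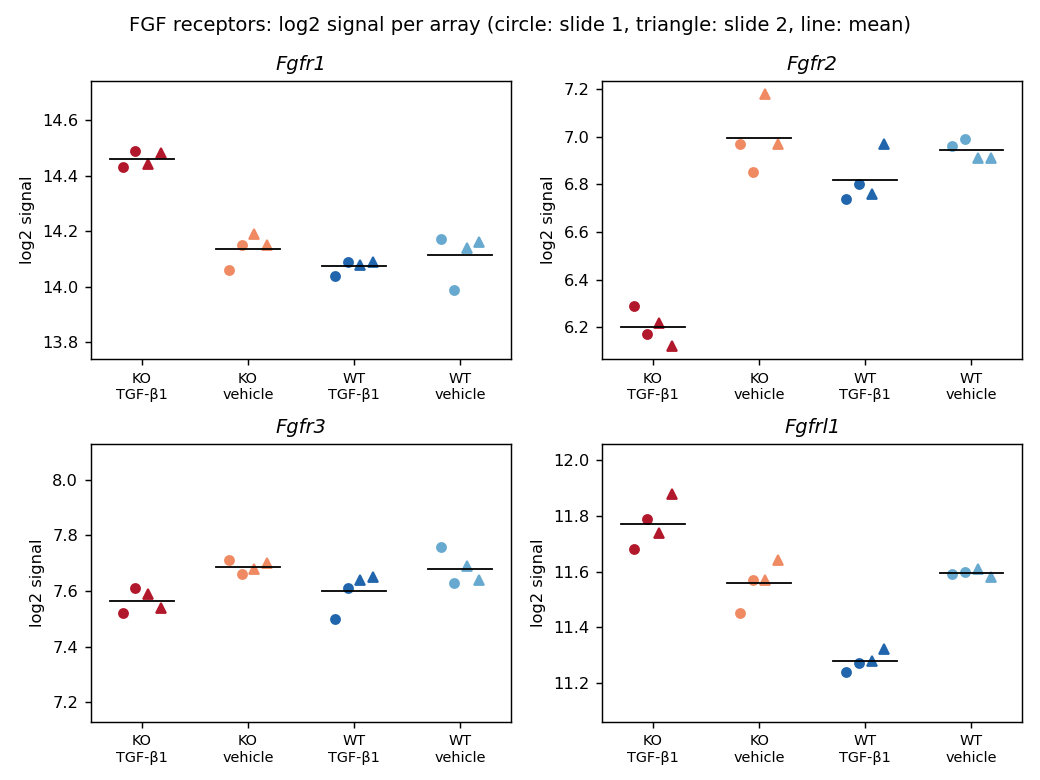
Log2 signal (vertical axis, own range in each panel) of the 4 receptors on each of the 16 arrays, by group, with the mean as a line, circles for slide 1 and triangles for slide 2. The 4 knockout arrays with TGF-β1 are highest for Fgfr1 and lowest for Fgfr2, and Fgfrl1 is highest there and lowest on the wild type arrays with TGF-β1.

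Among the receptors, Fgfr2 fell in knockout cells, and Fgfr1, the main FGF receptor of mesenchymal cells, rose there under the main scaling. In knockout cells Fgfr2 read 6.29, 6.17, 6.22 and 6.12 with TGF-β1, against 6.97, 6.85, 7.18 and 6.97 with vehicle. The wild type arrays gave 6.74, 6.8, 6.76 and 6.97 with TGF-β1, against 6.96, 6.99, 6.91 and 6.91 with vehicle. The 4 knockout arrays with TGF-β1 lie below all others, and the other groups overlap. Fgfr2 fell 1.73-fold in knockout cells (-0.79 ± 0.07, limma, adjusted p = 2.57e-08), and its -0.12 ± 0.07 in wild type cells did not pass (adjusted p = 0.111). That wild type difference passed within slide 1, at -0.21 (adjusted p = 0.0479), and without replicate 4 of the wild type TGF-β1 arrays, at -0.18 (adjusted p = 0.0282). The responses differed by -0.67 ± 0.09 (adjusted p = 2.54e-05), at -0.47 within slide 1 and -0.86 within slide 2, and at -0.32 with normexp correction, where the knockout response was -0.37. Only 1 Fgfr2 probe was bright enough, and it does not tell the splice forms apart here.

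In knockout cells Fgfr1 read 14.43, 14.49, 14.44 and 14.48 with TGF-β1, against 14.06, 14.15, 14.19 and 14.15 with vehicle. Wild type signals were 14.04, 14.09, 14.08 and 14.09 with TGF-β1, against 14.17, 13.99, 14.14 and 14.16 with vehicle. The knockout arrays with TGF-β1 stand above the other 3 groups, which overlap. The difference was 0.32 ± 0.04 in knockout (limma, adjusted p = 3.02e-06) and -0.04 ± 0.04 in wild type cells (adjusted p = 0.419). The responses differed by 0.36 ± 0.06 (adjusted p = 8.64e-05), at 0.37 within slide 1 and 0.35 within slide 2. The direction in knockout cells depended on the scaling. Under quantile normalization the median response of all genes in knockout cells was -0.01, against 0.10 with the 75th percentile. The part of that shift in the Fgfr1 result was not tested. Fgfr1 was then lower by 0.18 in knockout cells (log2 difference -0.18, adjusted p = 9.47e-05). In wild type cells the direction was the same as in the main fit, and the larger difference of -0.30 passed (adjusted p = 9.33e-07). The difference between responses was then 0.12 (adjusted p = 0.0363). The 4 Fgfr1 probes gave 0.32, 0.47, 0.32 and -0.16 in knockout and -0.04, -0.12, -0.17 and -0.30 in wild type cells, from the brightest to the dimmest. The dimmest thus disagreed in sign in knockout cells, and its difference between responses, 0.14, did not pass (adjusted p = 0.189).

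Fgfrl1, a receptor-like protein that binds ligand but lacks the kinase domain, moved in opposite directions in the 2 genotypes. In knockout cells Fgfrl1 read 11.68, 11.79, 11.74 and 11.88 with TGF-β1, against 11.45, 11.57, 11.57 and 11.64 with vehicle. In the wild type, Fgfrl1 read 11.24, 11.27, 11.28 and 11.32 with TGF-β1, against 11.59, 11.6, 11.61 and 11.58 with vehicle. The vehicle groups overlap, with the knockout TGF-β1 arrays above and the wild type TGF-β1 arrays below them. The difference was 0.22 ± 0.04 in knockout (limma, adjusted p = 4e-04) and -0.32 ± 0.04 in wild type cells (adjusted p = 1.58e-05). The responses differed by 0.53 ± 0.06 (adjusted p = 4.56e-06), at 0.56 within slide 1 and 0.50 within slide 2. Under quantile normalization the knockout response was -0.02 (adjusted p = 0.702), the wild type response -0.43 and their difference 0.41 (adjusted p = 1.99e-05), so the rise in knockout cells rested on the scaling and the difference between genotypes did not. Fgfr3, a receptor better known from cartilage and epithelium, lay between 7.5 and 7.76 on all 16 arrays. It differed by -0.12 ± 0.04 in knockout (adjusted p = 0.0111) and by -0.08 ± 0.04 in wild type cells (adjusted p = 0.0804). The knockout call was lost under quantile normalization (adjusted p = 0.623) and with normexp correction (0.0746). It was also lost by the mean over probes (0.512) and within slide 1 (0.194). A second, dimmer Fgfr3 probe gave -0.07 in knockout and -0.02 in wild type cells, and neither passed (adjusted p = 0.811 and 0.946).

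**Figure D3:**
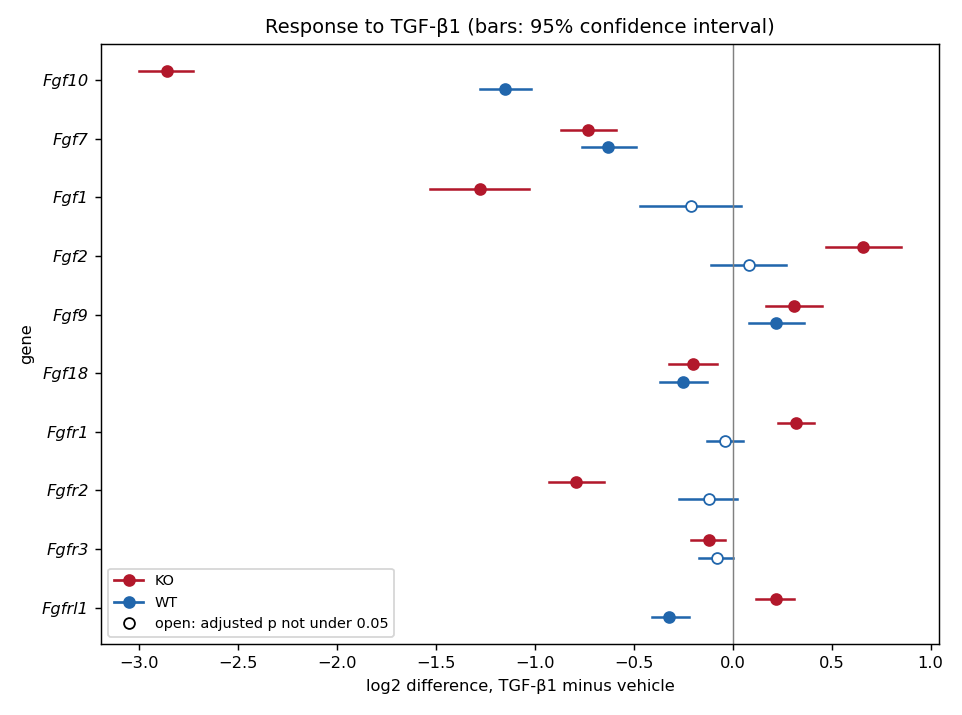
Log2 difference between TGF-β1 and vehicle (horizontal axis) for each of the 10 genes (vertical axis) in knockout and wild type cells, with 95% confidence intervals as bars and open points where the adjusted p was not under 0.05. Fgf10 is the farthest left in both genotypes, at -2.86 in knockout and -1.15 in wild type cells, and the Fgfrl1 points lie on opposite sides of 0.

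Knockout cells were also set against wild type cells within each treatment. With TGF-β1, 6 of the 10 genes differed, 3 higher and 3 lower, where 70.2% of all genes did (39.7% higher and 30.5% lower). Fgf2, Fgfr1 and Fgfrl1 were higher in the knockout, by 0.68 ± 0.09, 0.38 ± 0.04 and 0.49 ± 0.04 (limma, adjusted p = 6.83e-06, 7.48e-07 and 1.24e-07). Under quantile normalization the Fgfr1 difference was 0.13 (adjusted p = 0.00274). Fgf1, Fgf10 and Fgfr2 were lower, by 2.39-fold, 3.11-fold and 1.53-fold (adjusted p = 1.8e-07, 7.49e-12 and 8.66e-07). With normexp correction the Fgf1 difference was -0.72 and the Fgfr2 difference -0.27, both past the threshold. Within each slide the same 6 passed, with Fgf1 at -1.12 and -1.39, Fgf2 at 0.68 and 0.69, Fgf10 at -1.66 and -1.61, Fgfr1 at 0.40 and 0.37, Fgfr2 at -0.54 and -0.70 and Fgfrl1 at 0.48 and 0.51. Fgf7, Fgf9, Fgf18 and Fgfr3 did not pass, with intervals of -0.18 to 0.10, -0.01 to 0.26, -0.02 to 0.23 and -0.12 to 0.05. Fgf7 passed at -0.15 under quantile normalization (adjusted p = 0.0318), and Fgf9 and Fgf18 passed at 0.18 and 0.14 when replicate 3 of the knockout TGF-β1 arrays was left out.

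With vehicle, limma called 0 of the 10 genes different between genotypes at the adjusted threshold and 0 at an unadjusted p under 0.05, where 13.2% of all genes were called at the adjusted threshold (7.06% higher and 6.16% lower) and 27.7% at the unadjusted one. The differences ran between -0.19 for Fgf1 and 0.11 for Fgf2, and the 95% confidence intervals of all 10 lay between -0.44 and 0.30. The 4 knockout arrays lay below the 4 wild type arrays for Fgf1 alone, at 7.39 to 7.63 against 7.69 to 7.76 (-0.19 ± 0.12, adjusted p = 0.314). For the other 9 genes the genotypes overlapped. The share of all genes whose groups separate in this way was not counted, so no reading is drawn from the separation of Fgf1. These knockout and wild type vehicle arrays also enter the responses above.

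**Figure D4:**
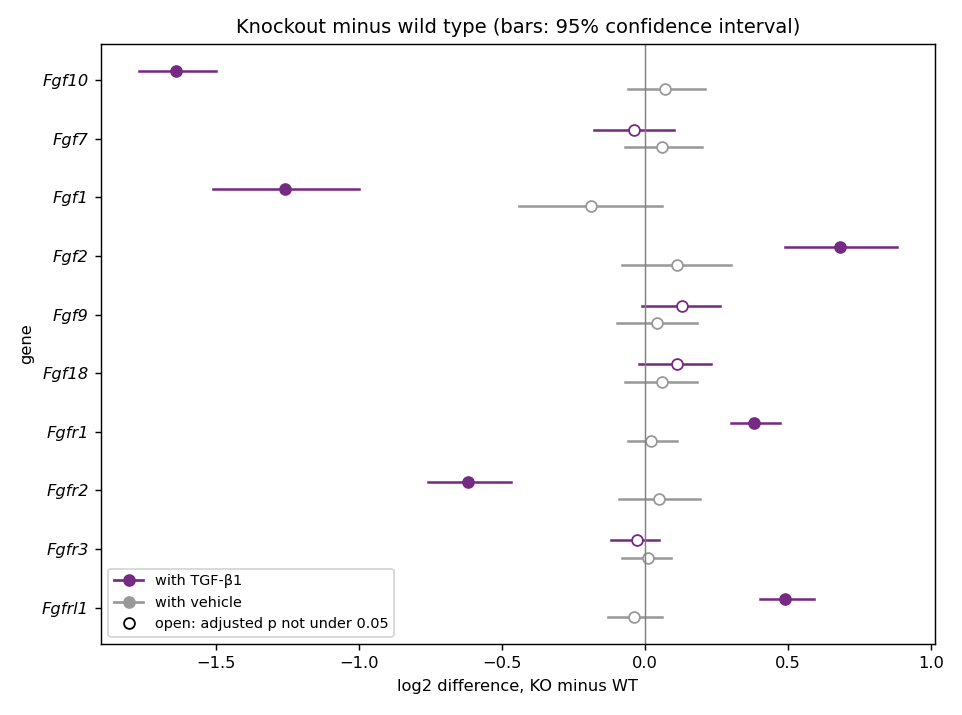
Log2 difference between knockout and wild type cells (horizontal axis) for each of the 10 genes (vertical axis), with TGF-β1 and with vehicle, with 95% confidence intervals as bars and open points where the adjusted p was not under 0.05. The vehicle points all lie between -0.19 and 0.11, and 6 of the TGF-β1 points are filled.

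Markers of other cells moved with treatment and genotype. All 8 macrophage and leukocyte markers and all 7 endothelial markers were lower with TGF-β1 in each genotype, as were Fgf10, Fgf7 and Fgf18. Of all genes 35.9% were lower in knockout and 27.3% in wild type cells. The summed macrophage signal was 47200 to 52600 in knockout cells with TGF-β1, 112000 to 115000 in knockout cells with vehicle, 69900 to 75100 in wild type cells with TGF-β1 and 135000 to 157000 in wild type cells with vehicle. The endothelial sum was 3330 to 3710 in knockout cells with TGF-β1, 7420 to 7660 in knockout cells with vehicle, 4600 to 5040 in wild type cells with TGF-β1 and 8020 to 8300 in wild type cells with vehicle. Both sums were thus lowest on the knockout arrays with TGF-β1, where Fgf10 was lowest too. With TGF-β1, 6 of the 8 macrophage and 5 of the 7 endothelial markers were lower in knockout than in wild type cells. With vehicle, 5 of the 8 and 1 of the 7 were lower in the knockout, where 6.16% of all genes were. The Fgf10 difference with vehicle did not pass the test. Of 6 mesothelial markers, 5 were lower in knockout than in wild type cells with TGF-β1, beside the lower Fgf1, Fgf10 and Fgfr2. The other marker, Krt19, was higher, with means of 10.18 in knockout and 9.07 in wild type cells. Of all genes 39.7% were higher and 30.5% lower in that comparison. The sum of the 6 markers was 12600 to 14500 on knockout TGF-β1 arrays and 26100 to 26600 on knockout vehicle arrays. It was 25600 to 26700 on wild type TGF-β1 arrays and 28900 to 30500 on wild type vehicle arrays. The mesothelial sum on the knockout TGF-β1 arrays stands apart from the other 3 groups, as Fgf1, Fgf10 and Fgfr2 do. The fibroblast sum was 478000 to 516000 in knockout cells with TGF-β1, 432000 to 458000 in knockout cells with vehicle, 519000 to 541000 in wild type cells with TGF-β1 and 411000 to 450000 in wild type cells with vehicle. Its 9 markers moved apart. TGF-β1 raised 5 and lowered 4 in knockout cells, and raised 6 and lowered 3 in wild type cells. Pdgfra, which fell in both, averaged 11.65 with TGF-β1 and 13.86 with vehicle in knockout cells, against 13.31 and 13.75 in wild type cells. With TGF-β1, 2 of the 9 were higher and 4 lower in knockout than in wild type cells, where 70.2% of all genes differed (39.7% higher and 30.5% lower). The sum of pericyte and smooth muscle markers was 25600 to 27300 in knockout cells with TGF-β1, 24000 to 25900 in knockout cells with vehicle, 24300 to 26900 in wild type cells with TGF-β1 and 21700 to 23300 in wild type cells with vehicle. Mcam, at 14.23 to 14.38 in the group means, makes up most of that sum, and the other members moved apart. Myh11, the smooth muscle myosin, rose with TGF-β1 by 3.63 in knockout and 2.19 in wild type cells, and Des, the muscle filament desmin, by 2.75 and 2.21. Cspg4, the pericyte proteoglycan NG2, averaged 9.26 with TGF-β1 and 6.20 with vehicle in knockout cells, against 6.34 and 6.40 in wild type cells. Rgs5 was higher by 1.27 in knockout cells and gave -0.59 in wild type cells (limma, adjusted p = 0.0529), both fitted values near background. It was well above background on 4 of 4 knockout TGF-β1 arrays and 2 of 4 knockout vehicle arrays. In wild type cells it was so on 0 of 4 TGF-β1 arrays and 3 of 4 vehicle arrays. Notch3 and Kcnj8 fell, by 1.33 and 1.78 in knockout and by 0.40 and 0.60 in wild type cells. With TGF-β1, knockout cells were thus higher than wild type cells for 4 of the 7 markers and lower for 2, beside the differences in Fgf1, Fgf2, Fgf10 and the receptors. Over the 6 epithelial markers that could be tested, of 8, the sum was 9490 to 10400 in knockout cells with TGF-β1, 5580 to 5810 in knockout cells with vehicle, 9700 to 10500 in wild type cells with TGF-β1 and 5910 to 6780 in wild type cells with vehicle. Krt8 and Krt18 carry that sum, and with Cdh1 they were higher with TGF-β1 in each genotype. The surfactant genes of alveolar type II cells went the other way. Sftpc averaged 1.87 with TGF-β1, above background on none of 4 arrays, and 8.14 with vehicle in knockout cells, against 3.77 with TGF-β1, above background on 1 of 4 arrays, and 8.57 with vehicle in wild type cells. It was at least 17.2-fold lower with TGF-β1 in knockout cells, and 27.8-fold lower by the fitted value in wild type cells. Sftpb was at least 1.46-fold lower in knockout and at least 2.32-fold lower in wild type cells, above background on none of the 8 TGF-β1 arrays. The part of these markers in the FGF results was not tested, and in such bulk RNA fewer cells of a type and less RNA per cell cannot be told apart.

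The rest of the FGF system is described through 6 lists of genes outside the 10. Their counts stand beside the same shares of all genes changed by TGF-β1, 82.6% in knockout and 68.6% in wild type cells. Of 16 other ligands only 6 were bright enough to test. TGF-β1 changed 4 of these in knockout cells, 3 higher and 1 lower, and 2 in wild type cells, 1 higher and 1 lower (5 under quantile normalization and 4 with normexp correction). Fgf21, an endocrine metabolic hormone, averaged 9 ± 0.05 with TGF-β1 and 6.14 ± 0.18 with vehicle in knockout cells, and 6.89 ± 0.10 with TGF-β1 and 6.77 ± 0.03 with vehicle in wild type cells (SD, n = 4 each). Its difference was thus 2.85 ± 0.07 in knockout (limma, adjusted p = 1.71e-14) and 0.13 ± 0.07 in wild type cells (adjusted p = 0.126, 0.0156 under quantile normalization, and 0.0396 without replicate 1 of the knockout vehicle arrays). Fgf12, an intracellular FGF-related protein known for binding sodium channels, rose by 1.80 ± 0.11 in knockout cells and gave 0.20 ± 0.11 in wild type cells (adjusted p = 6.06e-10 and 0.114), where another of its probes gave -0.56. Without replicate 4 of the wild type vehicle arrays the Fgf12 value in wild type cells was 0.32 and passed (adjusted p = 0.00754). Fgf8, a morphogen of the embryo, fell in both genotypes, at -0.95 ± 0.12 in knockout and -1.02 ± 0.12 in wild type cells (adjusted p = 3.51e-06 and 3.16e-06), or -0.24 in knockout and -0.50 in wild type cells with normexp correction.

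All 7 other receptors, co-receptors and carriers that could be tested changed in each genotype, 4 higher and 3 lower, where 82.6% of all genes changed in knockout and 68.6% in wild type cells. Fgfr4, the remaining kinase receptor, averaged 4.08 ± 0.32 with TGF-β1, with 2 of 4 arrays well above background, and 7.23 ± 0.11 with vehicle in knockout cells. In wild type cells Fgfr4 averaged 5.07 ± 0.28 with TGF-β1 and 7.05 ± 0.04 with vehicle (SD, n = 4 each). It fell by 3.15 ± 0.14 in knockout and by 1.98 ± 0.14 in wild type cells (limma, adjusted p = 1.76e-11 and 1.3e-08), or by 1.49 in knockout and 1.04 in wild type cells with normexp correction. Ncam1, an adhesion molecule that can engage FGF receptors, rose by 3.05 ± 0.04 in knockout and 1.94 ± 0.04 in wild type cells (adjusted p = 1.36e-17 and 8.37e-15). Flrt1, a leucine-rich repeat protein that binds FGF receptors, was at least 7.53-fold lower with TGF-β1 in knockout cells, where none of 4 arrays was well above background, and 2.64-fold lower in wild type cells. With normexp correction the Flrt1 differences were smaller, -1.13 in knockout and -0.70 in wild type cells. Another Flrt1 probe gave -0.38 in knockout and -0.31 in wild type cells. Klb and Kl, the co-receptors that FGF21 and FGF23 need, and Fgfbp1, a secreted carrier of FGFs, were too dim in every group to be tested.

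Of 23 heparan sulfate genes, TGF-β1 raised 9 and lowered 11 in knockout cells and raised 7 and lowered 9 in wild type cells, with medians of -0.08 in knockout and -0.03 in wild type cells. Gpc4, a cell surface glypican, rose by 2.30 ± 0.04 in knockout and 1.57 ± 0.04 in wild type cells (limma, adjusted p = 3.71e-16 and 1.39e-13). Hs6st2, which adds sulfate to the chain, rose by 2.65 ± 0.05 in knockout and 1.36 ± 0.05 in wild type cells (adjusted p = 6.45e-16 and 5.63e-12). Ext1, a polymerase of the chain, rose by 1.48 ± 0.04 in knockout and 0.48 ± 0.04 in wild type cells (adjusted p = 3.92e-14 and 5.68e-08). Hpse, the heparanase that cuts it, fell by 2.77 ± 0.07 in knockout and 1.92 ± 0.07 in wild type cells (adjusted p = 2.39e-14 and 7.61e-12). The 20 signal transducers split 7 higher and 8 lower in knockout and 8 higher and 7 lower in wild type cells. Map2k1, the ERK kinase MEK1, rose by 1.88 ± 0.05 in knockout and 0.84 ± 0.05 in wild type cells (adjusted p = 7.81e-14 and 3.17e-09), and Hras by 1.16 ± 0.05 in knockout and 0.58 ± 0.05 in wild type cells (adjusted p = 8.83e-12 and 8.4e-08). Gab1, a docking adaptor, fell by 1.15 ± 0.09 in knockout and 0.51 ± 0.09 in wild type cells (adjusted p = 1.22e-08 and 0.000157), or by 0.75 in knockout cells with normexp correction.

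Of 14 feedback inhibitors, 5 rose and 6 fell with TGF-β1 in knockout cells, and 2 rose and 8 fell in wild type cells. Spry1, a Sprouty protein that restrains RAS signalling, rose by 1.04 ± 0.06 in knockout cells and fell by 0.34 ± 0.06 in wild type cells (limma, adjusted p = 1.68e-10 and 9e-05). Dusp4, a nuclear ERK phosphatase, rose by 1.18 ± 0.08 in knockout cells (adjusted p = 3.73e-09). Dusp6, the ERK phosphatase of the cytoplasm, fell by 0.63 ± 0.05 in knockout and 0.48 ± 0.05 in wild type cells (adjusted p = 1.55e-08 and 7.02e-07). For Spry2 and Il17rd a second probe disagreed in knockout cells, at 0.23 for each, against -0.61 and -1.02 from the brightest.

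Of 14 transcriptional targets, 5 rose and 8 fell in knockout cells, and 6 rose and 8 fell in wild type cells. Fos and Egr1, immediate early factors downstream of ERK, fell in knockout cells by 2.61 ± 0.08 and 1.53 ± 0.05 (limma, adjusted p = 1.39e-13 and 1.11e-13), and rose in wild type cells by 0.22 ± 0.08 and 0.25 ± 0.05 (adjusted p = 0.0215 and 0.000166). Those wild type values were 0.10 and 0.09 under quantile normalization, where Fos did not pass (adjusted p = 0.218). In the authors' value table they were 0.10 and 0.09, and neither passed (adjusted p = 0.209 for Fos and 0.0541 for Egr1). Without replicate 1 or replicate 2 of the wild type vehicle arrays Fos also fell short there, at 0.21 and 0.15 (adjusted p = 0.0539 and 0.0787). Etv1, an ETS factor induced by FGF signalling, fell by 2.36 ± 0.07 in knockout and 0.72 ± 0.07 in wild type cells (adjusted p = 7.88e-14 and 2.29e-07). The families did not move as 1, since Etv4, Fosl1 and Junb were among the 5 that rose in knockout cells. Etv4 averaged 11.26 with TGF-β1 and 9.47 with vehicle in knockout cells, against 10.21 and 9.7 in wild type cells. Fosl1 averaged 8.92 and 8.2 in knockout cells, against 7.52 and 8.25 in wild type cells. Myc, a factor that drives growth, rose by 1.62 ± 0.06 in knockout and 0.71 ± 0.06 in wild type cells (adjusted p = 2.56e-12 and 1.25e-07). Ccnd1, the cyclin of early cell cycle, fell by 1.19 ± 0.06 in knockout and 0.72 ± 0.06 in wild type cells (adjusted p = 4e-11 and 3.94e-08).

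Set against wild type cells with TGF-β1 present, knockout cells had 3 of the 6 other ligands higher and 3 lower, and 4 of the 7 other receptors and carriers higher and 3 lower. Of the 23 heparan sulfate genes 10 were higher and 8 lower, of the 20 transducers 8 higher and 4 lower, of the 14 feedback inhibitors 6 higher and 5 lower, and of the 14 targets 8 higher and 6 lower. Of all genes 70.2% differed here, 39.7% higher and 30.5% lower. With vehicle, 1 of the 6 other ligands was higher in the knockout and 3 were lower, 1 of the 7 other receptors and carriers was higher and 2 were lower, 6 of the 23 heparan sulfate genes were higher and 2 lower, and 2 of the 14 targets were higher and 1 lower. Of the transducers 2 of 20 were higher, and of the feedback inhibitors 1 of 14 was lower, where 13.2% of all genes differed. These vehicle counts were small and unsteady. Without replicate 4 of the wild type vehicle arrays 2 other ligands passed. Without replicate 2 or replicate 4 of the knockout vehicle arrays 5 heparan sulfate genes passed. Within slide 1, where only 1.28% of all genes passed, none of the 6 lists had a gene that did. Fgf21 was lower in knockout than in wild type cells with vehicle, by 0.62 ± 0.07 (log2 difference -0.62, limma, adjusted p = 5.28e-05), and higher with TGF-β1, by 2.10 ± 0.07 (adjusted p = 2.12e-12). Egr1 was 3.55-fold and Fos 4.90-fold lower in the knockout with TGF-β1 (adjusted p = 6.49e-14 and 2.26e-12).

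**Figure D5:**
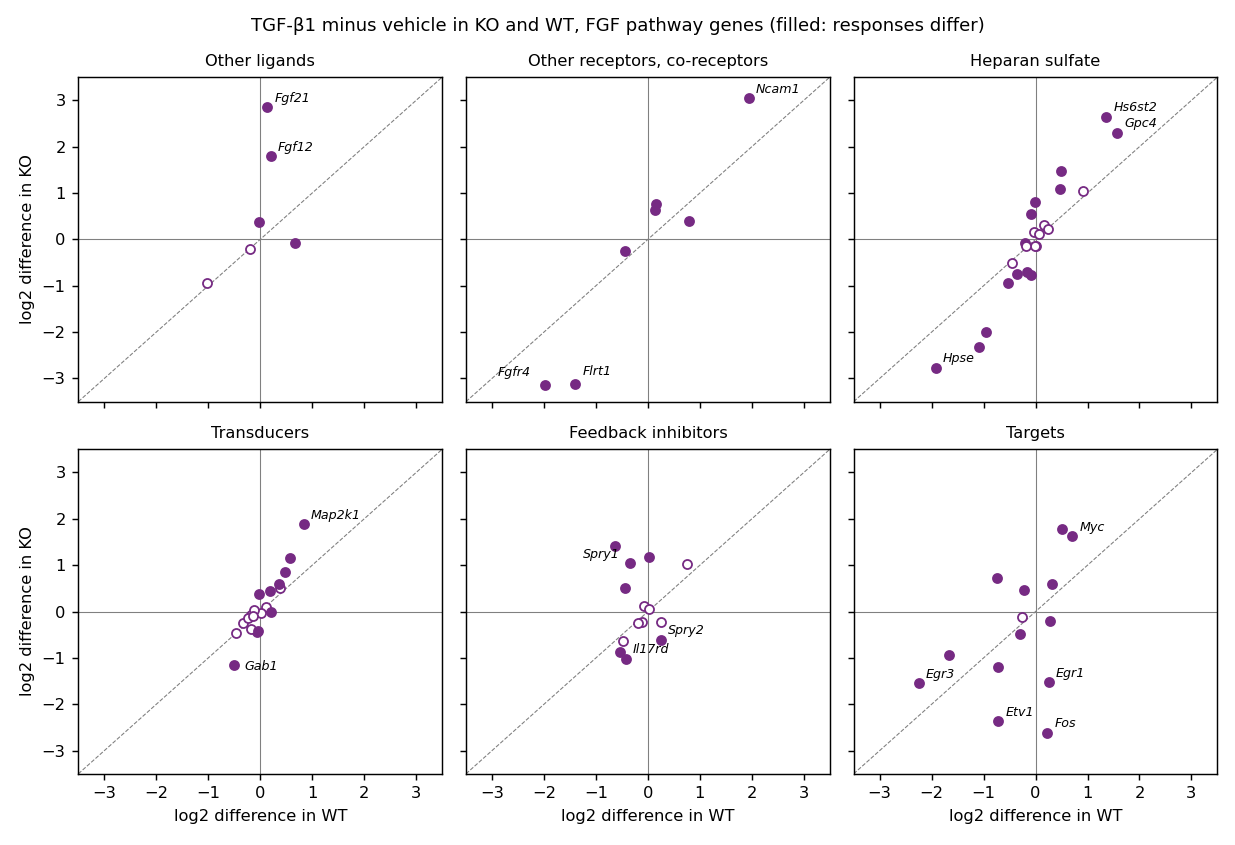
Log2 difference between TGF-β1 and vehicle in wild type cells (horizontal axis) and knockout cells (vertical axis) for the tested genes of the 6 lists, with the line of equal response dashed and points filled where the responses differed at an adjusted p under 0.05. Fgf21 and Fgf12 stand above 0 in knockout and near 0 in wild type cells, and Fos and Egr1 lie near -2.61 and -1.53 in knockout cells; Flrt1 in knockout cells is a fitted value for a group below background.

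Genes whose signal followed that of an FGF gene over the 16 arrays are named as a description, since all points share the treatment and genotype. Fgf10 was followed by Cyp2j9, Mme and Ypel1, each at r = 0.997, and Fgf7 by Rap2a (0.986), Exoc3 (0.98) and F8a (0.978). The nearest were Kif17 for Fgf1 (r = 0.982), Gas2l1 for Fgf2 (0.973), Cltc for Fgf9 (0.93) and St6galnac6 for Fgf18 (0.914). Among receptors they were Extl3 for Fgfr1 (0.972), Chrdl2 for Fgfr2 (0.973), Stac for Fgfr3 (0.904) and Fxyd6 for Fgfrl1 (0.975). Between the 10 genes themselves, r was 0.93 for Fgf10 with Fgfr2 and 0.92 both for Fgf1 with Fgfr2 and for Fgf2 with Fgfr1, and -0.91 for Fgf1 with Fgfr1.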

How the data were processed

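RNA was measured on 16 one-colour Agilent arrays, 4 in each of 4 groups. The spot intensities are linear and background-subtracted, per the file headers, by Agilent Feature Extraction 11.0.1.1, which the submitters' processing notes also name. The authors also deposited log2 values for 9933 probes, uncentred and brighter upwards, with neither their normalization nor the way the probes were picked being given. They correlate at r of at least 0.999 with the log2 intensity, and their column medians were 6.38 to 6.391 for knockout TGF-β1, 6.567 to 6.593 for knockout vehicle, 6.466 to 6.493 for wild type TGF-β1 and 6.595 to 6.615 for wild type vehicle. Of the 10 genes they include Fgf1 and Fgf10, so they served as an alternative.

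After log2 transformation, repeat spots were averaged by probe and arrays scaled to a common 75th percentile. No spot was saturated (0 of 59305 per array). Of 56605 probes 27 with outlier marks were left out, and 33888 were kept because some group had all 4 of its arrays well above background. Accessions without versions matched 32994 probes to RefSeq names (GRCm38.p6), 22709 of them kept, and the brightest probe stood for each of 15394 genes. Of 19 probes of the 10 genes 16 were kept. A gene was treated as below background only where its chosen probe was. The array was designed on another build, so only promoter windows carry coordinates.

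limma 3.58.1 (R 4.3.3, with the data.table package, version 1.17.8) fitted 1 coefficient per group over all 16 arrays with empirical Bayes moderation. Tests were 2-sided, with p adjusted by Benjamini-Hochberg within each of 5 comparisons. The fit was tested on simulated data in which few genes changed and no scaling step was run. That test cannot speak to the choice of scaling. Genes named are the 10, Islr, up to 4 list genes per comparison with the smallest adjusted p, list genes given as values, and the 3 genes most correlated with a member. The members, lists and naming rule were chosen with earlier results of these data known. Alternatives were quantile normalization, normexp (offset 50, on median spot signal, since the files hold no mean signal), the authors' table, other filters, the mean over probes, slide and replicate blocks, single slides and leaving out each array. Depth does not apply to arrays; 4 arrays per group limit the precision.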

Additional observations from a re-analysis of the deposited data

Results flagged for a closer look

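In 2 of 40 groups checked, a signal stood away from the other 3 arrays of its group by Dixon's criterion, which chance meets in about 1 in 20 groups. Fgf9 read 9.28 on replicate 2 of wild type cells with TGF-β1, above the rest of its group. Fgfr1 read 14.04 on replicate 1 of the same group, below the rest. Without these arrays the calls for both genes in every comparison were as in the full set.

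The response to TGF-β1 differed between knockout and wild type cells for 6 of the 10 genes by the interaction term of limma. The knockout response minus the wild type response was -1.06 for Fgf1, 0.58 for Fgf2, -1.71 for Fgf10, 0.36 for Fgfr1, -0.67 for Fgfr2 and 0.53 for Fgfrl1. Of the named genes around them it was -1.17 for Fgfr4 (adjusted p = 0.000175), 2.72 for Fgf21, 1.59 for Fgf12, 1.11 for Ncam1, 1.29 for Hs6st2, 1.00 for Ext1 and 1.04 for Map2k1. Among inhibitors it was 1.39 for Spry1, 1.16 for Dusp4 and -0.86 for Spry2, whose second probe gave -0.07 and did not pass (adjusted p = 0.677). Among targets it was -1.78 for Egr1, -2.84 for Fos and -1.64 for Etv1. With normexp correction the Fgfr4 value was -0.44. The share of all genes whose response differed was 58.3%.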

How the results depend on the processing

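The number of the 10 genes called was within 1.5 times its main value in all 45 pairs of a comparison with another setting. The same held in all 80 pairs of a comparison with a fit without 1 array. This number takes no account of direction, and with vehicle it was 0 throughout. The difference between responses kept its direction and call for all 6 genes that passed, under every alternative run that held the gene. Quantile normalization gave -0.18 for Fgfr1 and -0.02 for Fgfrl1 in the knockout response, 0.03 for Fgfr3 in knockout against wild type cells with TGF-β1, and -0.01 for Fgf18 and 0.01 for Fgfr3 in the difference between responses. The mean over probes gave -0.04 for Fgf2 in the wild type response, and -0.04 for Fgfr1 and -0.10 for Fgfr3 in knockout against wild type cells with vehicle. In that vehicle comparison slide 1 alone gave 0 for Fgf9, -0.05 for Fgf18, -0.07 for Fgfr2 and -0.01 for Fgfr3, slide 2 alone 0.01 for Fgfrl1, and leaving out 1 array gave -0.02 to 0.05 for Fgfr1, -0.01 to 0.10 for Fgfr2 and -0.01 to 0.03 for Fgfr3. Slide 1 also gave 0.01 for Fgfr3 with TGF-β1 and 0.03 for its difference between responses, and slide 2 gave -0.08 for that of Fgf18. Of named list genes, Fgf12 in the wild type response was -0.10 by the mean over probes and -0.03 on slide 2, Dusp4 there was -0.10 on slide 2 and -0.04 to 0.08 without 1 array, and Fgf11 in the knockout response was 0.21 by the mean over probes. None of these reversed values had passed the test in the main fit except the knockout responses of Fgfr1 and Fgfrl1; the cause was not tested. The share of all 15394 genes called with vehicle was 13.2%, but 1.28% on slide 1 and 6.81% on slide 2. Other settings tested other sets of genes. With no filter 6.83% of 22906 genes were called. In the authors' table it was 22.1% of 5257 genes, from probes picked in a way not given. With no filter the share was 46.6% with TGF-β1 and 37.2% for the difference between responses. The main fit gave 70.2% and 58.3%, and slide 1 alone gave 36.5% for the difference between responses. Higher calls were 60.2% of all calls in the wild type response and 46.1% in the authors' table, 53.4% and 38.9% in the vehicle comparison, and 54.6% and 43.6% (quantile normalization) in the difference between responses. The median knockout response of the 5257 genes in the authors' table was -0.36. With a replicate block 10, 5, 0, 6 and 6 of the 10 genes were called (knockout response, wild type response, vehicle, TGF-β1 and difference between responses), as without it. Same-numbered arrays deviated together at r of -0.034 to 0.218, not over 0.1 in every pair, so the numbers were not taken to pair the arrays, although 13 of 16 correlated best with their own number. Dim probes, such as those of Fgf1, Fgfr2 and Fgfr4, limit the size of their differences, which shrank with normexp correction.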
